A study of Capra hircus with 8 samples.

Results

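The genes described here are 10 symbols commonly used to mark fibroblasts, the collagen-making cells of connective tissue: TIMP1, TAGLN, ANXA1, COL1A2, COL3A1, DCN, VIM, SPARC, FN1 and THBS1. They were given as a named set, chosen with earlier results of these data known. They were looked up by symbol among the 22107 rows of the messenger RNA table, where each symbol occurs in a single row. The libraries came from goat embryos at the 8-cell stage, 2 made by in vitro fertilisation (IVF) and 2 by nuclear transfer from a body cell (SCNT), where an egg stripped of its own chromosomes receives a donor nucleus. The series has 8 samples, and the 4-cell samples have no messenger RNA values here. The labels give no strain, donor cell type, number of embryos per library or genotype, and they do not say whether replicates are separate pools. The p-values below thus rest on the spread between these samples alone, and that spread may be technical.

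A nucleus taken from a body cell carries the chromatin state of that cell, and genes that were active in the donor can stay active in the cloned embryo, a behaviour called transcriptional memory. Fibroblasts build a matrix of type I and type III collagen and fibronectin, trim it with metalloproteinases that the TIMP proteins inhibit, and pull on it through actin filaments. An early embryo also carries RNA that was stored in the egg, so a transcript of a matrix gene at this stage need not come from the donor nucleus. In pooled embryos, fewer cells of a type and less RNA per cell cannot be told apart.

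Levels are in FPKM, the fragments of a gene divided by its length in kilobases and by the library's fragments in units of 1000000. The library totals behind this scaling ran from 27.5 to 30.35 M reads (M, 1000000), and with them the FPKM of 17837 of 17843 genes above 0 in at least 2 libraries came to whole reads within 0.001 read. The read numbers below were recovered in this way, as the smallest whole numbers that give the 4 values of a gene. They cover counting error only, since copies of a molecule made by PCR were not told apart. The SCNT libraries held more genes at 1 FPKM or more, 9883 and 11025 against 8984 and 9038 in IVF. The 15 oocyte and early embryo markers found in the table summed to between 3486 and 6648 FPKM in each library. They ranged widely, from ZAR1 at 1.29 to 1.73 FPKM to the egg coat gene ZP2 at 905 to 1279 FPKM.

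At the 8-cell stage, 8 of the 10 marker genes were higher in both SCNT libraries than in both IVF libraries, and DCN and FN1 were lower in both. Over all tested genes, 46.9% had both SCNT values above both IVF values and 17.1% had both below. The test was limma on log2(FPKM + 1), with Benjamini-Hochberg adjustment over the 10303 genes that reached 1 FPKM in 2 or more of the 4 libraries. TIMP1 and TAGLN passed at 0.05, both higher in SCNT, and the other 8 did not pass. Over all tested genes 3.86% passed, 3.02% higher and 0.844% lower in SCNT (311 and 87 genes). An unadjusted p under 0.05, a count given for gene lists below, was reached by 3200 of the 10303 genes. After median centring 158 genes were called higher and 238 lower, and after quantile normalization 121 and 150. All 10 entered the test, but TIMP1, TAGLN, ANXA1 and COL3A1 entered through the SCNT libraries alone, so these 4 had to differ. The median log2 difference, SCNT minus IVF, was 1.09 over the 10 genes and 0.39 over all tested genes.

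**Figure D1:**
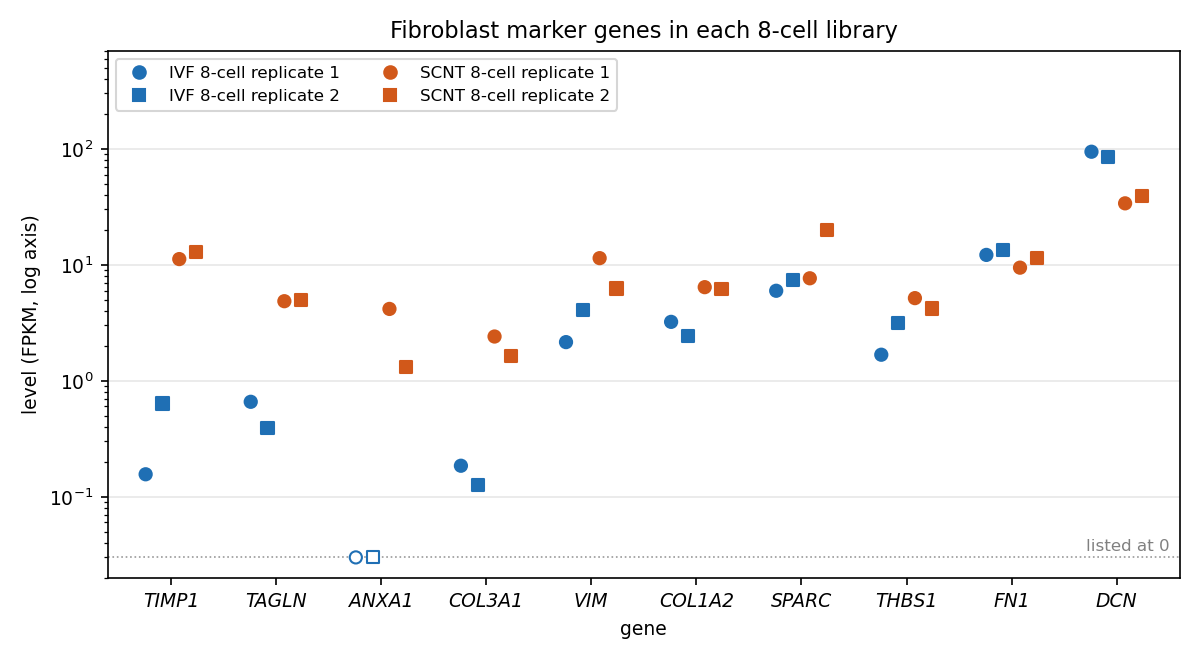
Level of each marker gene (FPKM, log axis) in the 2 IVF libraries (blue) and the 2 SCNT libraries (orange), circles for replicate 1 and squares for replicate 2; open symbols on the dotted line are values listed at 0. TIMP1, TAGLN, ANXA1 and COL3A1 lay below 1 FPKM in both IVF libraries and above it in both SCNT libraries, while DCN lay at 94.3 and 85.5 FPKM in the IVF pair and at 33.9 and 39.5 FPKM in SCNT.

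TIMP1 encodes a secreted inhibitor of matrix metalloproteinases. Its level was 0.156 and 0.637 FPKM in IVF replicates 1 and 2 and 11.2 and 12.9 FPKM in SCNT replicates 1 and 2. These values rest on 4 and 18 reads in IVF and on 296 and 343 reads in SCNT. The SCNT libraries were close to each other and far above both IVF libraries, with a ratio of means of 30.4. The IVF libraries differed by a factor of 4.08, and the ratio was 18.9 without IVF replicate 1 and 77.2 without IVF replicate 2. The 4 reads of IVF replicate 1 have an exact Poisson 95% interval of 1.09 to 10.2 reads. The log2 difference was 3.24 ± 0.44 (SE; 95% interval 2.24 to 4.24; limma adjusted p = 0.0223). Without IVF replicate 1 the adjusted p was 0.0506 and without SCNT replicate 2 it was 0.0620. The call held after median centring (0.0101) and quantile normalization (0.0179). It did not hold with no filter on low values (limma adjusted p = 0.242), a setting in which no gene passed.

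TAGLN encodes transgelin, an actin-binding protein of smooth muscle cells and fibroblasts. It stood at 0.659 and 0.389 FPKM in IVF (23 and 15 reads) and at 4.85 and 4.94 FPKM in SCNT (175 and 179 reads). The SCNT libraries differed from each other by a factor of 1.02 and lay 9.35 times above IVF in the mean. The log2 difference was 1.96 ± 0.39 (SE; limma adjusted p = 0.0417), and it no longer passed after median centring (0.0586) or quantile normalization (0.0747). Nor did it pass without IVF replicate 1 (0.144), IVF replicate 2 (0.175) or SCNT replicate 2 (0.0833).

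ANXA1, a calcium-dependent phospholipid-binding protein gene, was listed at 0 in both IVF libraries. In SCNT it stood at 4.16 and 1.31 FPKM, from 202 and 64 reads. A count of 0 allows up to 3 reads, which is 0.0638 and 0.0578 FPKM in the IVF libraries, and against the mean of these limits the SCNT mean was at least 45.0-fold higher. Without SCNT replicate 1 it was at least 21.6-fold higher, and the lowest SCNT value was at least 20.6-fold above the higher limit. The SCNT libraries differed from each other by a factor of 3.17. The limma adjusted p was 0.0541 with a log2 difference of 1.79 ± 0.43 (SE), a value set partly by the pseudocount and so no measure of the fold. With a pseudocount of 0.1 FPKM the limma adjusted p was 0.0364, and with FPKM rescaled to a total of 1000000 it was 0.0170. Rescaling raised every value above 0 before the pseudocount was added, so it also made the pseudocount smaller beside the levels. After median centring the adjusted p was 0.109, after quantile normalization 0.0898 and without the trend of variance on level 0.0733. Without SCNT replicate 1 the log2 difference was 1.21. Of all rows of the table, 3.89% were at 0 in both IVF libraries and above 0 in both SCNT libraries, and 0.982% showed the opposite.

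The fibrillar collagen genes were both higher in SCNT and neither passed. COL3A1, the chain of type III collagen, stood at 0.185 and 0.126 FPKM in IVF (28 and 21 reads) and at 2.41 and 1.63 FPKM in SCNT (376 and 256 reads), a ratio of means of 13.0. Its log2 difference was 1.37 ± 0.33 (SE; limma adjusted p = 0.0550). The adjusted p was 0.0248 after rescaling, 0.136 after median centring and 0.137 after quantile normalization. Without SCNT replicate 1 the log2 difference was 1.19. COL1A2, the second chain of type I collagen, stood at 3.22 and 2.44 FPKM in IVF (479 and 400 reads) and at 6.41 and 6.20 FPKM in SCNT (985 and 957 reads). The replicates were close in both groups, and the log2 difference was 0.94 ± 0.44 (SE; adjusted p = 0.182). Its partner chain gene COL1A1, which joins COL1A2 in the type I collagen molecule, was under 1 FPKM in every library, at 0.227 and 0.505 in IVF and 0.730 and 0.993 in SCNT. COL1A2 exceeded COL1A1 by a factor between 4.82 and 14.2 in each library.

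VIM encodes vimentin, the intermediate filament protein of mesenchymal cells. It stood at 2.15 and 4.09 FPKM in IVF (113 and 237 reads) and at 11.4 and 6.25 FPKM in SCNT (618 and 340 reads). The replicates differed by a factor of 1.90 in IVF and 1.83 in SCNT, against a ratio of means of 2.83 between groups. The log2 difference was 1.24 ± 0.50 (SE; limma adjusted p = 0.138).

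SPARC and THBS1 encode matricellular proteins, which bind matrix and growth factors without building fibres. SPARC, also called osteonectin, stood at 5.97 and 7.35 FPKM in the IVF pair and at 7.65 and 19.8 FPKM in SCNT. SCNT replicate 1 was barely above IVF, and SCNT replicate 2 was 2.59 times higher than SCNT replicate 1. The log2 difference was 0.81 ± 0.53 (SE; limma adjusted p = 0.324), 1.45 without SCNT replicate 1 and 0.18 without SCNT replicate 2. THBS1, thrombospondin 1, an activator of latent TGF-beta, stood at 1.68 and 3.12 FPKM in the IVF pair and 5.16 and 4.20 FPKM in SCNT. The IVF libraries differed by a factor of 1.86, nearly as much as the groups, whose means had a ratio of 1.95, and the gene did not pass (log2 difference 0.77 ± 0.45 SE; adjusted p = 0.273).

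FN1 and DCN, the genes with the highest levels in IVF embryos, were the 2 that lay lower in SCNT. FN1 encodes fibronectin, the matrix protein that integrins bind. It stood at 12.2 and 13.5 FPKM in IVF (2795 and 3426 reads) and at 9.44 and 11.4 FPKM in SCNT (2241 and 2727 reads). The groups did not overlap but the gap was small, and the log2 difference of −0.28 ± 0.43 (SE; 95% interval −1.26 to 0.70) did not pass (limma adjusted p = 0.692). DCN encodes decorin, a small leucine-rich proteoglycan that coats collagen fibrils and binds TGF-beta. It stood at 94.3 and 85.5 FPKM in IVF (4634 and 4637 reads) and at 33.9 and 39.5 FPKM in SCNT (1718 and 2012 reads). The mean in IVF was 2.45 times that in SCNT, with replicates within a factor of 1.17 in both groups. The log2 difference was −1.27 ± 0.39 (SE; adjusted p = 0.0776). The log2 difference of DCN was −1.17 without SCNT replicate 1 and −1.38 without SCNT replicate 2, where the spread comes from the IVF libraries alone.

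**Figure D2:**
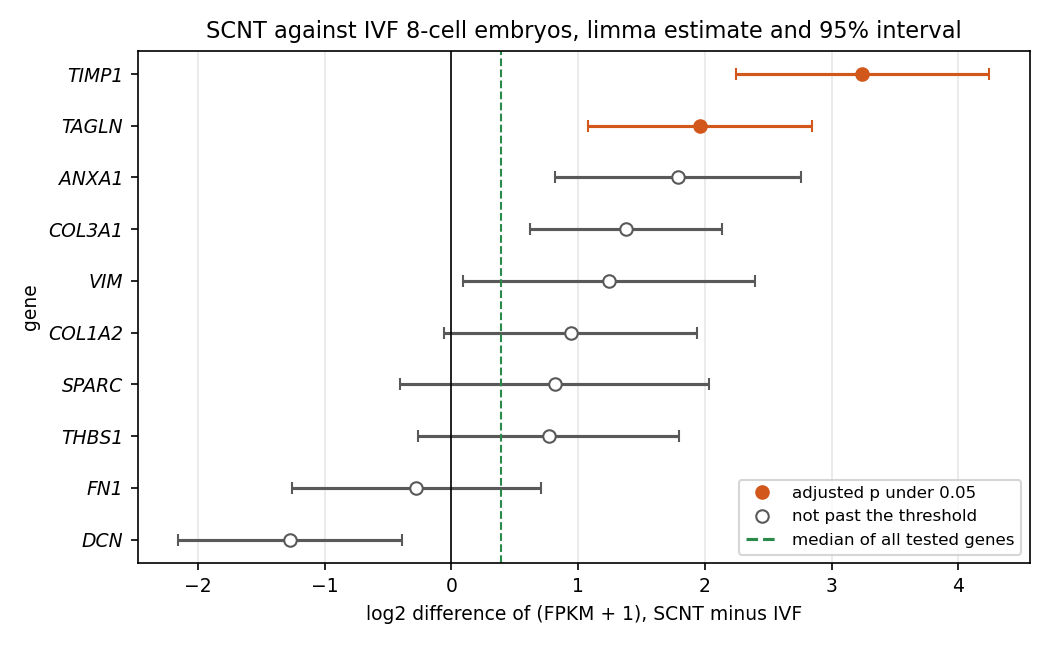
Log2 difference of FPKM + 1, SCNT minus IVF, with the limma 95% interval for each marker gene; orange filled points have an adjusted p under 0.05, and the dashed line is the median over all tested genes (0.39). TIMP1 (3.24) and TAGLN (1.96) passed, FN1 (−0.28) and DCN (−1.27) lay left of 0, and the other 6 lay between 0.77 and 1.79.

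The scale of the libraries bears on these differences. The median log2 difference of all tested genes was 0.39 as deposited, 0.44 after rescaling, −0.10 after median centring and −0.01 after quantile normalization. Relative to the median as deposited, TIMP1 was higher by 2.85, TAGLN by 1.57, ANXA1 by 1.40, COL3A1 by 0.98, VIM by 0.85, COL1A2 by 0.55, SPARC by 0.42 and THBS1 by 0.38, while FN1 lay at −0.67 and DCN at −1.66. All 10 genes kept the sign of their difference under each of the 11 alternatives that were run. Since no marker gene had overlapping groups, only the 3 other scalings could have turned a sign. The ratio of DCN to TIMP1, a pair picked after their values were seen, was 604 and 134 in IVF and 3.02 and 3.06 in SCNT.

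The order of levels within an embryo type also differed. In IVF the means ran from DCN (89.9 FPKM) through FN1 (12.8), SPARC (6.66), VIM (3.12), COL1A2 (2.83) and THBS1 (2.40) to TAGLN (0.524), TIMP1 (0.397), COL3A1 (0.155) and ANXA1 at 0. The libraries of VIM and COL1A2, COL1A2 and THBS1, TAGLN and TIMP1, and TIMP1 and COL3A1 overlapped. In SCNT the means ran from DCN (36.7 FPKM) through SPARC (13.7), TIMP1 (12.1), FN1 (10.4), VIM (8.83), COL1A2 (6.31), TAGLN (4.90), THBS1 (4.68) and ANXA1 (2.74) to COL3A1 (2.02). From SPARC to COL1A2 each gene overlapped the next, as did TAGLN with THBS1 and ANXA1 with COL3A1. TIMP1 thus went from the eighth place in IVF to the third in SCNT, where it was not separated from SPARC or FN1. In IVF, TIMP1 lay above 40.1% and 54.4% of all rows of the table, and in SCNT above 80.7% and 80.5%. DCN lay above 96.5% and 96.2% of rows in IVF and above 90.6% and 91.2% in SCNT.

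The summed level of the 10 genes was 120 and 117 FPKM in the IVF pair and 96.5 and 108 FPKM in SCNT, so the sum was not higher in SCNT. DCN alone held 78.3% and 73.0% of the sum in IVF and 35.1% and 36.5% in SCNT. The other 9 genes together came to 26.2 and 31.7 FPKM in the IVF pair and to 62.7 and 68.7 FPKM in SCNT. As a share of all FPKM of a library, these 9 made up 0.00630% and 0.00812% in IVF and 0.0165% and 0.0161% in SCNT.

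**Figure D3:**
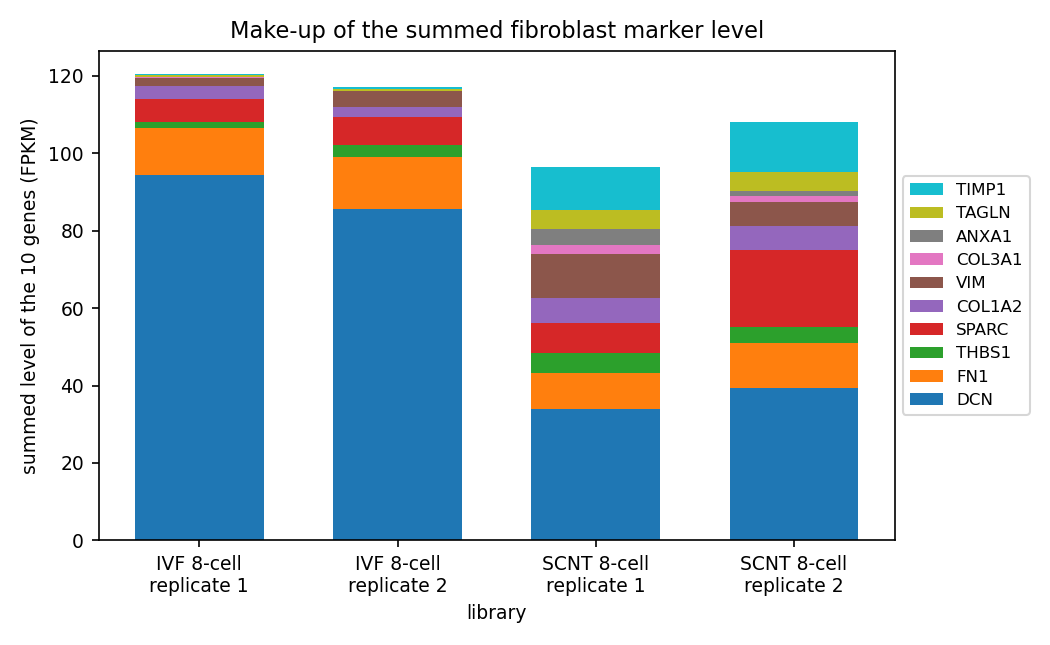
Summed level of the 10 marker genes (FPKM) in each library, stacked by gene. DCN fills 78.3% and 73.0% of the IVF bars and 35.1% and 36.5% of the SCNT bars, and TIMP1, hardly visible in IVF, reaches 11.2 and 12.9 FPKM in SCNT.

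DCN was examined together with its relatives because the small leucine-rich proteoglycan genes EPYC, KERA, LUM and DCN follow each other in this order in the goat gene table. KERA, which encodes keratocan, a proteoglycan best known from the cornea, stood at 81.6 and 101 FPKM in IVF (4809 and 6552 reads) and at 28.6 and 35.8 FPKM in SCNT (1741 and 2190 reads). Both SCNT libraries were below both IVF libraries, as for DCN. LUM, the lumican gene between KERA and DCN, stood at 16.1 and 13.0 FPKM in the IVF pair and at 16.5 and 14.2 FPKM in SCNT, and the groups overlapped. EPYC was listed at 0 in 3 libraries and at 0.0231 FPKM in SCNT replicate 2. The log2 difference of KERA was −1.47 ± 0.40 (SE; limma adjusted p = 0.0645). KERA passed after median centring (0.0380) but not after rescaling (0.0513), quantile normalization (0.0747) or without the trend of variance on level (0.0745). The log2 difference of LUM was 0.08 ± 0.42 (SE; adjusted p = 0.923), with a sign that turned after centring and quantile normalization. The ratio of KERA to DCN, which does not depend on the scaling of a library, lay between 0.845 and 1.18 in all 4 libraries. The ratio of LUM to DCN was 0.171 and 0.152 in IVF and 0.487 and 0.361 in SCNT.

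**Figure D4:**
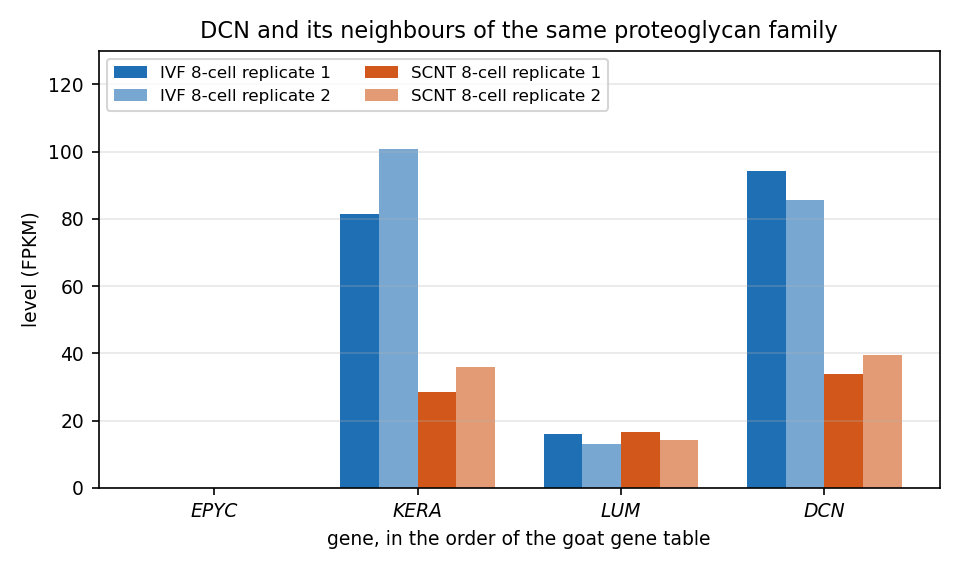
Level (FPKM) of DCN and of the 3 proteoglycan genes before it in the goat gene table, in the 2 IVF libraries (blue) and the 2 SCNT libraries (orange), pale bars for replicate 2. KERA and DCN were at 81.6 to 101 FPKM in the IVF pair and at 28.6 to 39.5 FPKM in SCNT, while LUM lay between 13.0 and 16.5 FPKM in all 4 libraries.

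A search was run over all tested protein-coding genes with a symbol. It used the same 4 values per gene, so it is no separate evidence that KERA and DCN are alike. Among 8829 candidates, KERA had the smallest root mean square difference from DCN, 0.21 on the log2(FPKM + 1) scale over the 4 libraries. For the other marker genes the smallest difference lay between 0.07 (COL1A2 and TRIT1) and 0.25 (TIMP1 and LRRC61). TAGLN was nearest to CHEK2, COL3A1 to AMT, VIM to SLC37A3, SPARC to GUK1, FN1 to RP9 and THBS1 to FDXACB1. ANXA1 was nearest to CTSK, the collagen-degrading protease cathepsin K, which stood at 0.0528 and 0.0120 FPKM in the IVF pair and at 3.57 and 1.06 FPKM in SCNT (difference 0.13). With 4 libraries and so many genes, many profiles lie close together, and these pairs are a description.

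Of the 20 genes next to or overlapping the markers in the goat gene table, 16 have values and 8 were tested. Limma called none of these 8 (2 at an unadjusted p under 0.05), against 3.86% of all tested genes. TIMP1 overlaps SYN1 and CT55 in the goat gene table, and whether reads were counted by strand is not given in the sources used here. SYN1 stood between 0.0909 and 0.154 FPKM in the 4 libraries, and CT55 at 9.22 and 7.59 FPKM in the IVF pair and 3.29 and 9.58 FPKM in SCNT. The lncRNAs on both sides of TAGLN did not exceed 0.0502 FPKM in any library, and the lncRNA that overlaps ANXA1 was listed at 0 in all 4. COL5A2, the type V collagen gene next to COL3A1, was listed at 0 in IVF and at 0.126 and 0.104 FPKM in SCNT. TRDMT1 next to VIM (adjusted p = 0.993), CASD1 and BET1 beside COL1A2 (0.524 and 0.664) and ATOX1 next to SPARC (0.693) did not pass. ATIC, next to FN1, stood at 92.8 and 96.0 FPKM in the IVF pair and at 190 and 214 FPKM in SCNT (0.0988). The gene before THBS1, LOC108636858, stood at 16.7 and 22.0 FPKM in the IVF pair and at 10.4 and 6.55 FPKM in SCNT (0.138).

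Other genes used to mark fibroblasts were looked up to see how far the set reflects the whole cell type. Of 23 found, 15 were under 1 FPKM in all 4 libraries, among them COL1A1, PDGFRB, THY1, POSTN and the type VI collagen genes. Both SCNT libraries lay above both IVF libraries for 10 of the 23 and below for 1, against 36.1% and 11.5% of all rows. Limma called none of the 5 that reached the filter (0 at an unadjusted p under 0.05), against 3.86% of all tested genes. The median log2 difference of these 5 was −0.06. LUM was described above. FAP, the fibroblast activation protein gene, averaged 2.76 ± 0.99 FPKM over the SCNT pair and 5.36 ± 0.61 FPKM over the IVF pair (SD, n = 2; limma adjusted p = 0.265). LGALS1, galectin 1, averaged 11.4 ± 4.13 and 7.67 ± 3.03 FPKM (0.506). The list summed to 40.5 and 31.1 FPKM in the IVF pair and 37.7 and 44.9 FPKM in SCNT. At low level, 4 of the 23 were at 0 in both IVF libraries and above 0 in both SCNT libraries, against 3.89% of all rows. These were MMP2 (1.11 and 0.378 FPKM in SCNT), S100A4 (0.438 and 0.125), COL5A2 and COL6A2 (0.0803 and 0.116). None of the 23 showed the opposite. FBLN1, a fibulin gene, stood at 0 and 0.0292 FPKM in the IVF pair and at 0.198 and 2.29 FPKM in SCNT. COL6A3, a type VI collagen gene, stood at 0.0726 and 0.0603 FPKM in the IVF pair and at 0.712 and 0.187 FPKM in SCNT. CD44, the hyaluronan receptor gene, stood at 0 and 0.252 FPKM in the IVF pair and at 0.764 and 0.582 FPKM in SCNT. COL1A1, FBLN2 and TGFBI were under 1 FPKM in every library and higher in both SCNT libraries. PDGFRA stood at 4.34 and 2.56 FPKM in the IVF pair and at 2.85 and 2.25 FPKM in SCNT. FBN1 had 2.89 and 2.10 against 1.56 and 3.37 FPKM, and TWIST1 1.02 and 0.415 against 0.532 and 0.176 FPKM. For PDGFRA, FBN1 and TWIST1 the groups overlapped.

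Of the 94 tested genes of the lists beside the markers, 10 entered the test through the SCNT libraries alone and 1 through the IVF libraries alone, so the filter fixed that these would differ. Genes that act beside TIMP1 were mostly uncalled. Of all tested genes 3.86% passed, the share to set beside this count and those of the lists below. Among 6 tested metalloproteinases, inhibitors and related genes, 0 rose, 1 fell and 5 did not pass, with a median log2 difference of 0.27. MMP13, which encodes collagenase 3, fell, from 2.23 and 4.38 FPKM in IVF to 0.157 and 0.170 FPKM in SCNT (log2 difference −1.84 ± 0.39 SE; limma adjusted p = 0.0445). MMP13 is the gene that entered through the IVF libraries alone. It did not pass without SCNT replicate 2 (0.108) or without the trend of variance on level (0.0581). Of the highest genes that did not pass, the sheddase gene ADAM17 had 106 ± 53.7 FPKM in SCNT and 90.9 ± 9.08 in IVF, ADAM10 had 9.77 ± 6.84 and 18.4 ± 6.17, and CD63, a TIMP1 receptor, had 27.0 ± 6.08 and 11.3 ± 3.28 (SD, n = 2). The related inhibitor gene TIMP2 was listed at 0 and 0.0267 FPKM in the IVF pair and at 1.13 and 0.312 FPKM in SCNT, and TIMP3 stood at 0.455 and 0.917 against 1.04 and 1.43 FPKM.

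Actin genes were examined beside TAGLN. Of 13 tested genes of the contractile cytoskeleton, 2 rose and 11 did not pass, and the median log2 difference was 1.45. TAGLN2, which encodes a relative of transgelin, rose from 3.69 and 5.92 FPKM to 27.7 and 50.9 FPKM (log2 difference 2.76 ± 0.49 SE; limma adjusted p = 0.0343). TPM2, a tropomyosin gene, was listed at 0 in both IVF libraries and at 3.42 and 2.62 FPKM in SCNT (limma adjusted p = 0.0295), and it entered the test through the SCNT libraries alone. Both missed the threshold without IVF replicate 1 (0.118 and 0.0651) and without SCNT replicate 2 (0.0840 and 0.0620). Among those that did not pass, CNN3 (calponin 3) had 259 ± 39.8 FPKM in SCNT and 92.3 ± 19.8 in IVF, and VCL (vinculin) had 76.4 ± 36.4 and 20.7 ± 3.55 (SD, n = 2). ACTG1, a cytoplasmic actin gene, stood at 131 and 145 FPKM in the IVF pair and at 169 and 161 FPKM in SCNT. The smooth muscle actin gene ACTA2 stood at 1.49 and 2.0 FPKM in the IVF pair and 1.74 and 7.11 FPKM in SCNT.

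The genes that fold, cut and cross-link collagen were not called by limma. None of 5 tested passed (2 at an unadjusted p under 0.05; median log2 difference 1.05), and 14 of the 19 found were under 1 FPKM in every library. P4HB, a subunit of prolyl 4-hydroxylase, had 43.3 ± 4.06 FPKM in SCNT and 20.5 ± 2.97 in IVF, PCOLCE had 26.5 ± 14.9 and 11.3 ± 4.94, and P4HA3 had 9.90 ± 2.75 and 5.36 ± 3.37 (SD, n = 2). The collagen chaperone gene SERPINH1 was listed at 0 in 3 libraries and at 0.129 FPKM in SCNT replicate 2. Of the other small leucine-rich proteoglycans, 3 of 10 found were tested. Beside KERA and LUM this was FMOD, fibromodulin, which averaged 1.57 ± 0.502 FPKM over the SCNT pair and 0.0285 ± 0.0403 FPKM over the IVF pair (SD, n = 2; limma adjusted p = 0.0550) and entered through the SCNT libraries alone. BGN and ASPN of the same family were at 0 in both IVF libraries and at 0.807 and 0.289 and at 0.658 and 0.128 FPKM in SCNT.

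Receptors and partners of FN1 and THBS1 did not pass in limma. None of 9 tested matrix receptors was called (2 at an unadjusted p under 0.05; median log2 difference 0.35). Over all tested genes, 3200 of 10303 were at an unadjusted limma p under 0.05. ITGB1, the integrin beta 1 gene, had 52.7 ± 18.9 FPKM in SCNT and 38.0 ± 1.04 in IVF, and ITGA6 had 29.0 ± 16.8 and 26.0 ± 2.19 (SD, n = 2). CD36, a thrombospondin receptor gene, stood at 16.6 and 19.4 FPKM in the IVF pair and at 10.5 and 9.03 FPKM in SCNT. None of 12 tested TGF-beta pathway genes was called (4 at an unadjusted p under 0.05; median 0.67), with SMAD2 at 124 ± 24.8 and 92.7 ± 25.7, CTGF at 19.7 ± 9.85 and 10.3 ± 0.601 and TGFBR3 at 15.4 ± 3.20 and 15.1 ± 1.49 FPKM. None of 6 tested basement membrane genes was called (3 at an unadjusted p under 0.05; median 0.88), with LAMC1 at 32.3 ± 4.37 and 21.7 ± 6.68, LAMB1 at 26.5 ± 7.53 and 22.5 ± 1.23 and DAG1 at 19.8 ± 3.10 and 7.32 ± 2.63 FPKM.

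Relatives of ANXA1 and VIM were measured beside them. Annexins and their S100 partners had a median log2 difference of 0.48, and limma called none of 6 (0 at an unadjusted p under 0.05). ANXA5 had 29.8 ± 1.60 FPKM in SCNT and 37.0 ± 1.17 in IVF, S100A10 had 35.4 ± 25.4 and 17.5 ± 12.7, and S100A11 had 54.7 ± 12.1 and 47.1 ± 43.8 (SD, n = 2). Of 6 tested intermediate filament and lamin genes, 2 rose and 4 did not pass (median 1.09). LMNA, the gene of A-type lamins, rose from 0.852 and 1.26 FPKM to 8.49 and 20.7 FPKM (log2 difference 2.81 ± 0.52 SE; limma adjusted p = 0.0387). The epithelial keratin gene KRT8 stood at 2.10 and 0.0367 FPKM in the IVF pair and at 8.64 and 25.0 FPKM in SCNT (0.0463). LMNA did not pass without IVF replicate 1 (0.109) or SCNT replicate 2 (0.0843), nor KRT8 without IVF replicate 2 (0.136) or SCNT replicate 2 (0.130). KRT8 also missed the threshold with a pseudocount of 0.1 FPKM (0.0637), after quantile normalization (0.0662) and without the trend (0.0505). LMNB1 had 15.5 ± 5.99 and 8.57 ± 0.975, LMNB2 14.8 ± 1.77 and 8.93 ± 4.35, and SYNM 4.25 ± 0.83 and 2.04 ± 0.182 FPKM.

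Markers of other cell types were measured beside the fibroblast genes. The 14 cumulus and granulosa markers found summed to 99.4 and 106 FPKM in the IVF pair and to 80.4 and 117 FPKM in SCNT. Limma called none of the 6 tested (0 at an unadjusted p under 0.05). Of the 14, 3 were at 0 in every library, FSHR, AMH and INHA. CYP19A1 stood at 1.68 and 1.66 FPKM in the IVF pair and at 0.974 and 2.53 FPKM in SCNT. GREM1 had 3.64 and 1.96 against 3.63 and 3.83 FPKM. LHCGR, the luteinising hormone receptor gene, and INHBA were at 0 in both IVF libraries and at 0.385 and 1.30 and at 0.205 and 0.379 FPKM in SCNT. PTGS2 stood at 0 and 0.00848 FPKM in the IVF pair and at 0.163 and 0.460 FPKM in SCNT. TNFAIP6, a gene of the cumulus matrix, stood at 19.5 and 19.8 FPKM in the IVF pair and at 1.77 and 14.3 FPKM in SCNT. STAR had 48.7 ± 13.0 FPKM in SCNT and 40.6 ± 2.56 in IVF, HAS2 had 18.0 ± 0.159 and 25.0 ± 6.18, and VCAN had 16.6 ± 1.50 and 12.8 ± 2.03 (SD, n = 2). The 7 epithelial markers found summed to 9.33 and 6.89 FPKM in the IVF pair and to 23.3 and 40.1 FPKM in SCNT. KRT18, KRT19 and CLDN4 were at 0 in both IVF libraries and above 0 in both SCNT libraries, against 3.89% of all rows. Their reads in SCNT replicates 1 and 2 were 1 and 2 for KRT18, 2 and 68 for KRT19 and 1 and 1 for CLDN4. Of 4 tested, KRT8 rose, and CDH1 had 7.97 ± 2.88 and 4.24 ± 1.04, EPCAM 2.96 ± 0.40 and 2.46 ± 0.927, and KRT5 2.90 ± 2.43 and 0.337 ± 0.146 FPKM. The 6 endothelial markers found summed to 17.0 and 22.5 FPKM in the IVF pair and to 23.0 and 39.8 FPKM in SCNT, nearly all of it TEK (25.1 ± 8.98 and 16.1 ± 2.69) and KDR (5.81 ± 2.44 and 3.05 ± 0.742). The 5 blood markers found summed to between 0.532 and 1.99 FPKM in each library, and none was tested. Oocyte and embryo genes had a median log2 difference of 0.86, and 2 of 15 rose, ZAR1L (1174 ± 553 against 189 ± 8.11 FPKM; adjusted p = 0.0330) and KHDC3L (93.3 ± 8.23 against 22.6 ± 5.33 FPKM; 0.0425). ZAR1L did not pass without IVF replicate 1 (0.0859) or IVF replicate 2 (0.0848). KHDC3L did not pass without IVF replicate 1 (0.313), IVF replicate 2 (0.116) or SCNT replicate 2 (0.0779), nor after centring (0.0765) or quantile normalization (0.0607). ZP2 had 1120 ± 224 and 923 ± 25.7, BMP15 855 ± 120 and 467 ± 10.1, and ZP4 806 ± 402 and 695 ± 208 FPKM in SCNT and IVF. Both SCNT libraries lay above both IVF libraries for 10 of the 15 and below for 2, against 46.9% and 17.1% of all tested genes. Among the homeobox genes of the list, ARGFX stood at 497 and 105 FPKM in the IVF pair and at 51.4 and 88.3 FPKM in SCNT (log2 difference −1.75; limma adjusted p = 0.128). LEUTX and DUXA had log2 differences of −0.71 and −0.61, with libraries that overlapped. The part of any of these cell types in the levels of the 10 marker genes was not tested.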

How the data were processed

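Polyadenylated RNA of directly lysed goat embryos was turned into libraries by Smart-seq2, per the labels' protocols. The authors deposited FPKM per gene for the 8-cell libraries, 2 IVF and 2 SCNT, and these are the values used. Tools listed in the submitters' processing notes, with no role or order, are HTSeq, fastp and HISAT2 2.2.1. No source used here gives the genome build, annotation or strand setting. A RefSeq gene table (assembly ARS1.2) served for gene order and type, and no coordinates are given. The lncRNA tables were not used here.

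Read totals were recovered from genes with a genomic span under 3000 bases, and feature lengths and reads from whole-number steps. The test was limma 3.58.1 (R 4.3.3; lmFit, then eBayes with trend) on log2(FPKM + 1), over genes that reached 1 FPKM in 2 or more of the 4 libraries, two-sided, with Benjamini-Hochberg adjustment and a threshold of 0.05. The script was tested on simulated data. Fold changes on this scale understate the change of low genes. A pair of libraries both at 0 contributes no spread. Of the 15 lists beside the markers, the text names every gene that passed and the 3 highest that did not. The nearest-profile genes and part of the flanking genes are named too. COL1A1, PDGFRA, FBN1, TWIST1, TIMP2, TIMP3, ACTA2, SERPINH1, TNFAIP6, CYP19A1, GREM1, ARGFX, LEUTX, DUXA, ZAR1, NLRP5 and the other genes near 0 were chosen after their values were seen. The 10 genes and the lists were chosen with earlier results of these data known. Alternatives were a pseudocount of 0.1 FPKM, no filter, 3 other scalings, no trend, a replicate block and leaving out each library.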

Additional observations from a re-analysis of the deposited data

How the results depend on the processing

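TIMP1 passed in 8 of 11 alternatives, TAGLN in 5, ANXA1 in 4, COL3A1 in 3, and DCN and SPARC in 1 each. COL1A2, VIM, FN1 and THBS1 passed in none. Limma called 2 of the 10 markers, 7 of 94 other listed genes and 398 of all genes (311 higher, 87 lower). With no filter the counts were 0, 0 and 0 (adjusted p = 0.242 for TIMP1 and TAGLN), with 3661 of 20289 genes at an unadjusted p under 0.05 (5 of the markers). Rescaling, which also made the pseudocount smaller beside the levels, gave 4, 17 and 1327. Median centring gave 1 marker and 396 genes (158 higher, 238 lower) and quantile normalization 1 marker and 271 genes (121 higher, 150 lower). Leaving out single libraries gave 0 to 6 markers, 1 to 39 other listed genes and 46 to 3834 genes; the highest counts came without SCNT replicate 1 and the lowest count of genes without SCNT replicate 2. The cause was not tested. A lone library left in a group is assumed there to vary like the pair of the other group. The sign of LUM turned after centring (−0.42), after quantile normalization (−0.30), and over single libraries left out it ran from −0.071 (without IVF replicate 2) through −0.023 (without SCNT replicate 1) to 0.23. No setting turned the sign of a marker gene, though only the 3 other scalings could have done so.

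The labels number replicates 1 and 2 in each group without saying that a number is shared by source. Across 10303 genes the replicate differences of IVF and SCNT correlated at 0.12, which does not settle a pairing. With the replicate block 4 markers passed (TIMP1, TAGLN, ANXA1 and COL3A1), 21 other listed genes and 1924 genes. Depth limits the IVF values of TIMP1, TAGLN, ANXA1 and COL3A1, which rest on 0 to 28 reads.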

Other observations

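The following values were noticed in the data and are a description of 12 genes, several of them on fewer than 10 reads, with no test. Of the 860 rows at 0 in both IVF libraries and above 0 in both SCNT libraries, 36.7% were higher in SCNT replicate 1 than in SCNT replicate 2, and the median ratio of replicate 1 to replicate 2 was 0.532. Of the 12 such genes in the fibroblast, collagen, basement membrane, matrix receptor, protease and proteoglycan lists, ANXA1 included, 8 were higher in replicate 1, with a median ratio of 1.54. The ratio was 3.17 for ANXA1 (202 and 64 reads), 2.92 for MMP2 (99 and 34 reads), 2.79 for BGN (25 and 9 reads), 5.13 for ASPN (46 and 9 reads) and 3.51 for S100A4 (7 and 2 reads). It was 1.22 for COL5A2, 0.690 for COL6A2, 0.147 for LRP1 (12 and 82 reads) and 0.201 for PLAU (1 and 5 reads).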
